A study of Mus musculus with 2 samples.

Results

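The cells described here are bone marrow cells whose RNA is rich in the primary granule genes Mpo, Elane, Prtn3 and Ctsg and nearly free of the later granule gene Fcnb. Each had at least 200 genes detected and at most 25% mitochondrial transcripts. Mpo, Elane, Prtn3 and Ctsg together made up at least 1% of its RNA molecules, Elane had 5 or more unique molecular identifiers (UMIs, each standing for 1 captured RNA molecule), Fcnb had fewer than 5, and Ltf, Camp and Ngp together made up less than 0.5%. The rule picked 676 of 15650 kept cells from the high fat diet (HFD) library and 641 of 14302 from the normal diet (ND) library, 1317 of 29952 in all. Both libraries came from the bone marrow of male mice with the genotype label Wild type and the strain label C57B/6. The HFD mice ate a diet with 60% fat for 16 weeks, and the ND mice ate normal chow over the same time. Single-cell RNA and 5 antibody tags were read on the BD Rhapsody platform, with 1 library per diet. The labels give no number of animals, no pooling of animals and no cell sort.

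Because each diet has 1 library, no test between diets was possible. Intervals are 95% intervals of counting error, and they hold no spread between animals. A level is the UMIs of a gene summed over the gated cells and scaled to a fixed total of UMIs in those cells (CPM). The gated cells held 15227889 UMIs in the HFD library and 14075095 in the ND library, and the median cell held 22458 and 21906 UMIs. Cells under 8000 UMIs numbered 68 among HFD members and 37 among ND members. The 2 libraries shared 329 cell barcodes, and none of these was a member in both libraries. Shared barcodes that were a member in only 1 library were not counted.

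Neutrophils are made in the bone marrow from granulocyte and monocyte progenitors. Their granules are filled in waves: myeloperoxidase and the serine proteases elastase, proteinase 3 and cathepsin G are made first and stored in the primary (azurophil) granules, whereas lactoferrin, cathelicidin and gelatinases are made later for the secondary and tertiary granules. Early progenitors that switch on the primary granule genes still include cells that can become monocytes, a choice in which the transcription factor Irf8 favours monocytes and Gfi1 and Cebpe favour neutrophils.

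The regions around the starts of the 4 genes whose summed share defines the cells are printed first, because these genes are the identity of the population and lie partly side by side. On the RefSeq GRCm38.p6 assembly, Prtn3 (chr10:79879667-79883174) ends 3137 bases before Elane (chr10:79886312-79888216), and Elane ends 2636 bases before Cfd, which encodes complement factor D. Ctsg lies at chr14:56099885-56102574, 14385 bases past Mcpt8, a mast cell protease 8 gene of basophils. Mpo lies at chr11:87793784-87804412. Each sequence runs 5′ to 3′ from 250 bases before to 50 bases after the annotated start, and capitals mark the letters GAGGAA, the core bound by the myeloid factor PU.1, or their reverse complement. The C/EBP pattern TTNNGNAA was also searched on both strands and was not in these 4 windows.
Mpo, chr11:87793534-87793833, plus strand: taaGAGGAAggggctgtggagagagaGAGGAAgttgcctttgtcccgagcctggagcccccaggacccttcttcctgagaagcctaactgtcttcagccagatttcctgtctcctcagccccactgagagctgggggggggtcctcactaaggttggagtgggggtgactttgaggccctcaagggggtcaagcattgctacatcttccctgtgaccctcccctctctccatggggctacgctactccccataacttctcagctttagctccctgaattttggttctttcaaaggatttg
Elane, chr10:79886062-79886361, plus strand: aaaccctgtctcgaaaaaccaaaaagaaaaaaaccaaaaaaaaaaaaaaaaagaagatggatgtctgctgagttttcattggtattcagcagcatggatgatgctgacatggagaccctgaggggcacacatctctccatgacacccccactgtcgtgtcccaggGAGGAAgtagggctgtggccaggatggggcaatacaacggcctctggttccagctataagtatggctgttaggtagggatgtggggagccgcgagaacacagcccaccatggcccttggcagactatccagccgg
Prtn3, chr10:79879417-79879716, plus strand: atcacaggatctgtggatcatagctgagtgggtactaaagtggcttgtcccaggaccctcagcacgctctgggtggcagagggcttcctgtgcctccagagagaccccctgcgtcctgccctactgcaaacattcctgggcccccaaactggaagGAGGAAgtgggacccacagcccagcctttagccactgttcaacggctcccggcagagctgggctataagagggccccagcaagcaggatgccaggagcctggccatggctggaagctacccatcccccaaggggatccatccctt
Ctsg, chr14:56102525-56102824, minus strand: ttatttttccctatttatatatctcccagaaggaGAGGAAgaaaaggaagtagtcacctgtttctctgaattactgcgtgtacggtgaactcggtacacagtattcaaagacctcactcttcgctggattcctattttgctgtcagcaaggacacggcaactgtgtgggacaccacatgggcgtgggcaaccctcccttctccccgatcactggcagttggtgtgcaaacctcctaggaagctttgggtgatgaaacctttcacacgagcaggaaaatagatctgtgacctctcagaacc

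GAGGAA occurred 2 times before Mpo and 1 time each before Elane, Prtn3 and Ctsg, at 85 bases before the Elane start and 95 before the Prtn3 start. It occurs at least once in 28.1% of 32544 RefSeq promoter windows of the same length, and TTNNGNAA in 40.7%. The matches are descriptions of the letters and show no binding.

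The 4 genes of the rule and the 2 further markers stood at nearly the same level in both libraries. Mpo, the peroxidase that makes hypochlorous acid, was at 8889 CPM (95% interval 8842 to 8936) in HFD members and 8970 CPM (8920 to 9019) in ND members. Elane, neutrophil elastase, was at 4977 CPM in HFD members and 4986 CPM in ND members. Prtn3, proteinase 3, was at 4727 CPM in HFD members and 4482 CPM in ND members. Ctsg, cathepsin G, was at 2250 CPM in HFD members and 2362 CPM in ND members. Together the 4 made up 2.08% of the RNA in each library. Per cell, Elane ran from 5 to 490 UMIs with a median of 89 in HFD members. In ND members it ran from 5 to 400 UMIs with a median of 95. The lower end was set by the rule, and these UMIs were not scaled for depth. These 4 genes chose the cells, and their levels are descriptions.

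Ms4a3 and Prss57 were not in the rule. Ms4a3, a membrane protein gene of granulocyte and monocyte progenitors, was at 560 CPM (548 to 572) in HFD members and 596 CPM (583 to 609) in ND members, with at least 1 UMI in 93.9% of HFD members and 95.8% of ND members. Prss57, a serine protease stored in primary granules, was at 278 CPM (270 to 286) in HFD members and 289 CPM (280 to 298) in ND members. In cells with 5 or more Cd79a UMIs, which are B lineage by that marker, Ms4a3 was at 27.2 CPM in the HFD library and 27.6 CPM in the ND library, and Prss57 at 21.6 and 13.6 CPM. Mpo itself had a UMI in 9.93% of the HFD cells and 10.4% of the ND cells of that Cd79a gate, at median depths of 2550 and 2614 UMIs. For genes that B lineage cells should lack, shares at or below those of the Cd79a gate are not read as expression. The Cd79a cells are shallower than the members, so this comparison depends on whether cells are thinned to an equal depth.

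Few cells lay at the Elane and Fcnb limits of the rule, and more lay at the limit of the 4-gene share. Elane stood at exactly 5 UMIs in 8 HFD and 6 ND members, and at 4 UMIs in 7 HFD and 3 ND cells just outside. Fcnb stood at 4 UMIs in 17 HFD and 9 ND members, and at 5 UMIs in 8 HFD and 18 ND cells just outside. The 4-gene share lay between 1.0 and 1.1% in 42 HFD and 40 ND members, and between 0.9 and 1.0% in 49 HFD and 38 ND cells just outside, so this limit cuts through a continuum.

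The label of neutrophil progenitors held for many of the members but not for all of them. All 8 monocyte markers were detected, with a summed level of 4106 CPM in HFD members and 3787 CPM in ND members. Most of that sum was Ly6c2, which neutrophil precursors carry too, so the sum is not specific to monocytes. Ly6c2 was at 2448 CPM in HFD and 2094 CPM in ND members with a 4-gene share of 1 to 2%. At a share of 2 to 4% it was higher, at 2957 and 3156 CPM. All 6 basophil and mast cell markers were detected too, at 667 CPM in HFD members and 795 CPM in ND members, and the 4 eosinophil markers were at 432 and 716 CPM. Most of the eosinophil sum was Prg2. With cells thinned to 2000 UMIs, Prg2 was found in 4.19% of HFD and 5.09% of ND members, below the 11.3% and 11.7% of the Cd79a gate. Without thinning the shares were 27.5% and 18.7% of members and 15.7% and 15.4% of that gate. The eosinophil sum is therefore not read as expression across the members. T and NK markers summed to 4.47 CPM in HFD members and 4.69 CPM in ND members, and B markers to 31.3 and 21.7 CPM. Of the stem cell markers, Hlf was at 35.6 CPM in HFD members and 34.1 CPM in ND members, and Meis1 at 12.2 and 12.8 CPM. The population is therefore called here by its rule, Mpo- and Elane-rich, Fcnb-low progenitors.

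Set beside the cells of the same rule with 5 or more Fcnb UMIs (219 HFD and 178 ND cells, the Fcnb-high gate), the Fcnb-low members had more Cd34 and less calprotectin RNA. Among 10063 genes with 100 or more UMIs, 557 (5.54%) were at least 2-fold higher in the Fcnb-low gate in both libraries and 232 (2.31%) were at least 2-fold lower. The gates were cut from the same counts, so these numbers describe them and test nothing. Cd34, a sialomucin of progenitor surfaces, was at 350 CPM in the Fcnb-low and 18.0 CPM in the Fcnb-high gate of the HFD library, and at 337 and 19.75 CPM in the same gates of the ND library. Mfge8, a secreted protein that bridges phagocytes to dying cells, was at 12.5 CPM in the Fcnb-low gate of each library and under 1 CPM in the Fcnb-high gate. Serpinf1, Il6st (the gp130 receptor chain), Abcb1b (a drug efflux pump), Bpifc, Mdga1, Trem2 and Afap1l1 had the next highest ratios among genes at 200 or more UMIs, together with Ccl5, of which 1 cell held 55.6% of the UMIs in HFD members and 32.8% in ND members.

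At the other end, S100a8 and S100a9, the calprotectin pair, were far lower in the Fcnb-low gate. S100a8 was at 256 CPM in the Fcnb-low and 5303 CPM in the Fcnb-high gate of the HFD library, and at 200.5 and 5207 CPM in the ND library. Wfdc21, a small secreted antiprotease-like protein, was at 72.6 and 867 CPM in the HFD library and at 63.2 and 783 CPM in the ND library. Chil3, Abca13, Lrg1, Mogat2 and Pilrb2 completed the list with Fcnb and Camp, which the rule used. Kit, the stem cell factor receptor, did not follow this division: it was at 133 CPM in the Fcnb-low and 126 CPM in the Fcnb-high gate of the HFD library, and at 153 and 139 CPM in the ND library.

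On the other side lie cells with 5 or more Mpo, fewer than 5 Elane and 2 or more Kit and Cd34 UMIs (702 HFD and 723 ND cells, the Elane-low gate), whose share of kept cells was 4.49% in the HFD library and 5.06% in the ND library. Among 10681 genes, 224 (2.1%) were at least 2-fold higher in the Mpo- and Elane-rich cells in both libraries and 662 (6.2%) were at least 2-fold lower. Among the genes lowest in the Mpo- and Elane-rich cells were the eosinophil genes Ear1, Epx and Ear6 and the basophil protease gene Prss34, beside Dntt, Eya2, Gna14, Csrp3 and St8sia6. Prss34 was at 204 CPM against 5545 CPM in the Elane-low gate of the HFD library, and at 263 against 4960 CPM in the ND library. Epx, eosinophil peroxidase, was at 28.5 against 766 CPM in the HFD library and 20.8 against 558 CPM in the ND library. The genes highest in the Mpo- and Elane-rich cells besides Elane were Prom1, Hsd11b1, Glt1d1, Mgam, Cldn15, Trem3, Cracr2b and Mgl2, with Fcnb as a rule gene. Trem3, a receptor of the TREM family, was at 102 CPM against 6.5 CPM in the HFD library and 112 against 5.6 CPM in the ND library.

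Because the Elane-low gate held many molecules of eosinophil and basophil genes, it was also restricted to cells with fewer than 20 Mcpt8, Cpa3 and Prg2 UMIs, a limit chosen after its values were seen. Against these 461 HFD and 485 ND cells, 309 of 10455 genes (2.96%) were at least 2-fold higher in the Mpo- and Elane-rich cells in both libraries and 558 (5.34%) at least 2-fold lower. The lymphoid gene Dntt and the multipotent progenitor receptor gene Flt3 were among the lowest in the Mpo- and Elane-rich cells. Flt3 was at 10.97 against 202 CPM in the HFD library and 10.2 against 211 CPM in the ND library. Cebpe, the granulocyte transcription factor, was at 53.8 against 1.14 CPM in the HFD library and 56.8 against 0.834 CPM in the ND library. Irf8 was at 330 against 745 CPM in the HFD library and 261 against 759 CPM in the ND library. Gfi1 was at 94.96 against 19.8 CPM in the HFD library and 97.3 against 16.3 CPM in the ND library.

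**Figure D1:**
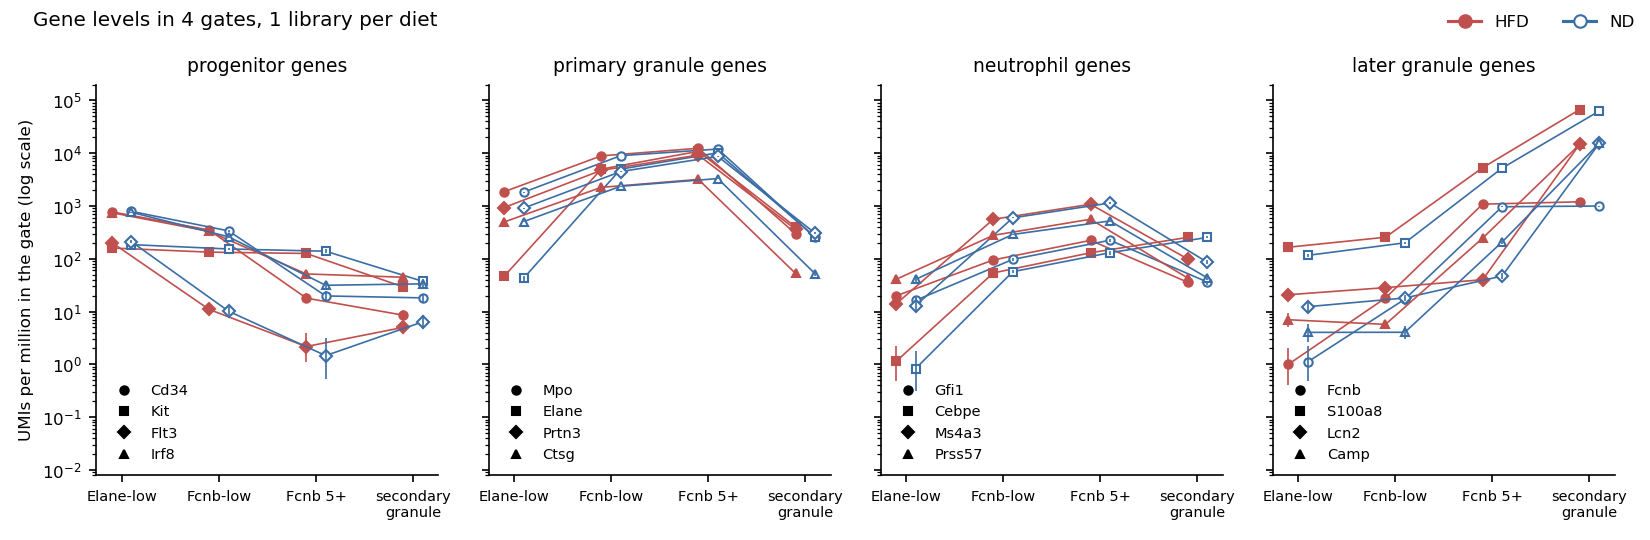
Level of 16 genes in CPM (log axis) in 4 gates: Elane-low cells without Mcpt8, Cpa3 and Prg2 cells, the Fcnb-low Mpo- and Elane-rich cells, the same rule with 5 or more Fcnb UMIs, and secondary granule cells (Ltf, Camp and Ngp at 2% or more of RNA). Filled red symbols are the HFD library, open blue symbols the ND library, and lines through them 95% counting intervals. Cd34 falls from gate to gate, Gfi1 and Ms4a3 are highest in the Fcnb-high gate, and the 2 libraries run side by side. The Elane-low gate required 2 or more Kit and Cd34 UMIs, so its high Cd34 is partly built in. Mpo, Elane, Prtn3, Ctsg, Fcnb and Camp also cut the gates.

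Within the population, levels summed over bins of members ran in the same order. The bins were cut on the 4-gene share and on Fcnb, which the rule used, so they describe the members and test nothing. Members with a 4-gene share of 1 to 2% (363 HFD and 347 ND cells) were compared with those at 2 to 4% (303 and 281) and 4 to 8% (10 and 13). Cd34 was at 474, 215 and 28.0 CPM over these bins in the HFD library and at 481, 179 and 44.5 CPM in the ND library. Irf8 was at 513, 125 and 0 CPM in the HFD library and at 418, 86.1 and 0 CPM in the ND library. Both genes were thus highest in the members with the least granule RNA.

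Gfi1, a repressor needed for neutrophil formation, ran the other way: 50.03, 143 and 247 CPM in the HFD library and 53.1, 145 and 229 CPM in the ND library. Ms4a3 was at 298, 843 and 1340 CPM in the HFD library and at 337, 877 and 1309 CPM in the ND library. S100a8 was at 113, 378 and 1690 CPM in the HFD library and at 30.3, 372 and 1188 CPM in the ND library. With cells thinned to 2000 UMIs, S100a8 was found in 18.2% of all HFD members, below the 21.6% of HFD cells of the Cd79a gate. Low levels of it are therefore not told apart from background. Kit stayed between 126 and 142 CPM in the HFD library and between 140 and 154 CPM in the ND library. Cebpa, a transcription factor required for granulocyte and monocyte progenitors, lay between 174 and 215 CPM in the HFD bins and between 153 and 202 CPM in the ND bins. The last bin holds under 20 cells in each library and its values rest on few molecules.

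**Figure D2:**
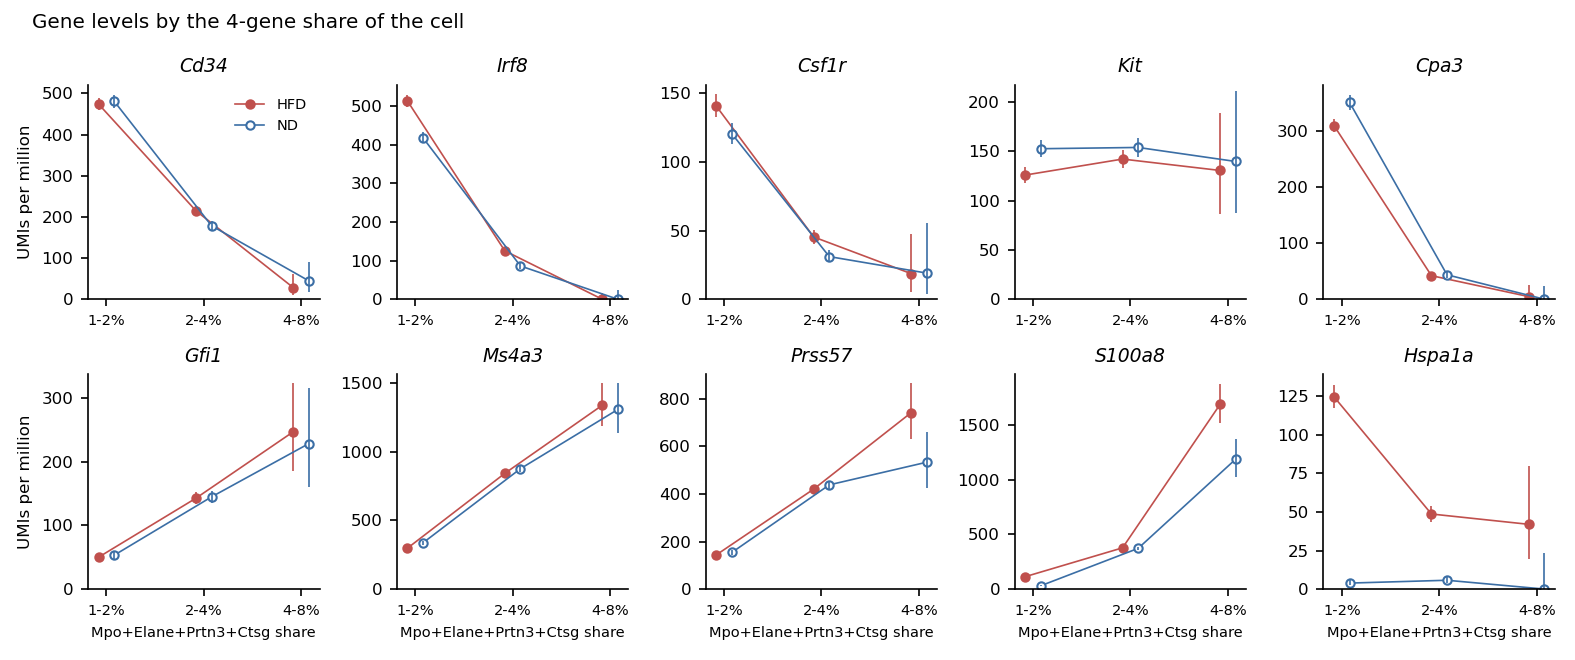
Level in CPM of 10 genes in members grouped by the share of Mpo, Elane, Prtn3 and Ctsg in their RNA (1 to 2%, 2 to 4%, 4 to 8%), HFD filled red and ND open blue, with 95% counting intervals. Cd34, Irf8, Csf1r and Cpa3 fall and Gfi1, Ms4a3, Prss57 and S100a8 climb with the share in both libraries, Kit stays level, and Hspa1a is high only in the HFD library.

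Bins of Fcnb, which is under 5 UMIs in every member by rule, ran in the same way. It had no UMI in 529 HFD and 508 ND members, 1 or 2 UMIs in 109 and 99, and 3 or 4 in 38 and 34. Over these bins Cd34 was at 412, 176 and 72.1 CPM in the HFD library and at 401, 140 and 45.6 CPM in the ND library, while S100a8 was at 121, 377 and 1561 CPM in the HFD library and at 66.8, 484 and 1177 CPM in the ND library. The S phase list held 5551, 5250 and 5346 CPM in the HFD bins and 5467, 5123 and 4616 CPM in the ND bins, and Mki67, a marker of cycling cells, lay between 277 and 322 CPM throughout. Over the bins of the 4-gene share the S phase list was lower at high shares, at 5923, 5072 and 2399 CPM in the HFD library and 5647, 5041 and 4944 CPM in the ND library. Top2a, topoisomerase II of dividing cells, was at 637, 511 and 420 CPM in the HFD library and 609, 467 and 337 CPM in the ND library.

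Irf8 UMIs varied widely among the members. Members were split by Irf8 UMIs and by the sum of Mcpt8, Cpa3 and Prg2, with limits set after the values were seen. Cells with 20 or more UMIs of that sum form a subset of their own and are in none of the Irf8 subsets. The subsets were cut from the same counts, so the genes that differ between the subsets are described and not tested. The Irf8-low subset (under 3 Irf8 UMIs) held 329 of 676 HFD members, or 48.7% (44.8 to 52.5), and 339 of 641 ND members, or 52.9% (48.9 to 56.8). The Irf8-rich subset (10 or more Irf8 UMIs) held 185 HFD members, or 27.4% (24.04 to 30.9), and 147 ND members, or 22.9% (19.73 to 26.4). A further 95 HFD and 87 ND members had 3 to 9 Irf8 UMIs. The ratio of the Irf8-rich share, HFD over ND, was 1.19 with a counting interval of 0.96 to 1.49, which includes no difference. Irf8 was at 10 to 14 UMIs in 46 HFD and 48 ND members and at 5 to 9 UMIs in 64 HFD and 62 ND members, so many cells lie near the limit. The limits are raw UMIs, so the subsets depend on depth and shallow cells fall into the Irf8-low subset. The 5th percentile of depth was 1462 UMIs in HFD and 2544 in ND Irf8-low members, against 16235 and 15620 in Irf8-rich members.

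The Irf8-rich members carried a monocyte programme beside the granule genes. F13a1, coagulation factor XIII A of monocytes, was at 985 CPM in the Irf8-rich and 65.1 CPM in the Irf8-low subset of the HFD library, and at 957 and 65.4 CPM in the ND library. Csf1r, the M-CSF receptor, was at 206 and 24.7 CPM in the HFD library and at 197 and 18.4 CPM in the ND library. Klf4, a monocyte transcription factor, was at 112 and 6.67 CPM in the HFD library and at 74.97 and 1.87 CPM in the ND library. Mpo was only moderately lower in these cells, at 7009 CPM in the Irf8-rich and 10566 CPM in the Irf8-low subset of the HFD library, and 7119 and 10507 CPM in the ND library.

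The neutrophil genes divided the other way. Elane was at 3219 CPM in the Irf8-rich and 7023 CPM in the Irf8-low subset of the HFD library, and at 3196 and 6879 CPM in the ND library. Cebpe was at 6.36 and 78.8 CPM in the HFD library and at 7.18 and 73.3 CPM in the ND library. Gfi1 was at 24.4 and 158 CPM in the HFD library and at 39.1 and 150 CPM in the ND library. Cd63, a tetraspanin of primary granule membranes, was at 61.9 and 745 CPM in the HFD library and at 78.7 and 792 CPM in the ND library. The 10 genes with the highest ratios of the Irf8-rich over the Irf8-low subset were Irf8 itself, Tmem268, Itga1, Apba1, Nrp1, Ifi209, Il6st, Stxbp6, Ms4a4c and Dglucy. Among 9375 genes, 252 (2.69%) were at least 2-fold higher in the Irf8-rich subset in both libraries and 264 (2.82%) were at least 2-fold lower.

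**Figure D3:**
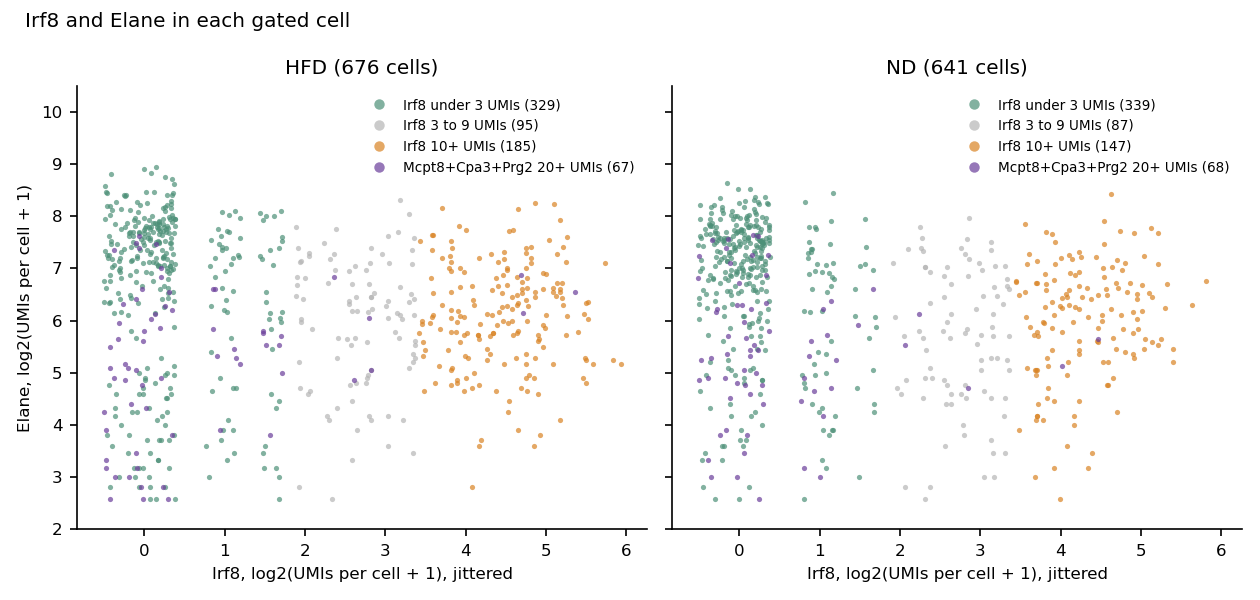
Irf8 against Elane in every gated cell, each as log2 of UMIs per cell plus 1 (Irf8 jittered), HFD left and ND right. Irf8-low cells reach the highest Elane counts, Irf8-rich cells sit lower in Elane in both libraries, and the cells rich in Mcpt8, Cpa3 and Prg2 mostly have few Irf8 UMIs.

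A smaller subset of 67 HFD members (9.91%) and 68 ND members (10.6%) held 20 or more UMIs of Mcpt8, Cpa3 and Prg2. Cpa3, carboxypeptidase A3 of mast cells and basophils, was at 1634 CPM in these HFD members and 1604 CPM in these ND members. Prg2, the major basic protein of eosinophils, was at 4020 CPM in these HFD members and 6537 CPM in these ND members. Gata2 was at 229 and 248 CPM, and Cebpe was at 144 and 159 CPM, higher than in the Irf8-low subset of either library. Ly6c2, a surface marker of monocytes and neutrophil precursors, was at 392 CPM in these HFD members and 332 CPM in these ND members, against 2298 and 2436 CPM in the Irf8-low HFD and ND members. These cells thus met the limits of the rule while carrying eosinophil, basophil and mast cell genes.

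The antibody tags are a readout the rule did not use. CD117, the protein of Kit, had a median of 25 molecules per member (quartiles 11.8 and 47) in the HFD library and 39 (21 and 72) in the ND library. In the Cd79a gate its median was 0 in both libraries, and in secondary granule cells it was 2 in the HFD library and 3 in the ND library. CD117 was lower in the Fcnb-high gate, with medians of 16 in the HFD library and 19.5 in the ND library. CD16/CD32, the Fcγ receptors, had a median of 7 in HFD members and 14 in ND members, and of 28 and 51 in secondary granule cells of the HFD and ND libraries. The tags were lower over the whole HFD library: the mean per kept cell, HFD over ND, was 0.57 for CD117 and 0.67 for CD16/CD32, beside 0.62 and 0.58 in the members. Whether CD117 on the members differs between diets beyond this library-wide shift was not tested. Sca-1 (Ly-6A/E) and CD105 had medians of 0 or 1 in members of both libraries.

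The share of kept cells meeting the rule was 4.32% (4.01 to 4.65) in the HFD library and 4.48% (4.15 to 4.83) in the ND library. The ratio was 0.96 with a counting interval of 0.86 to 1.08. The Fcnb-high gate held 1.40% (1.22 to 1.60) and 1.24% (1.07 to 1.44), a ratio of 1.12 (0.92 to 1.38). Secondary granule cells held 9.77% and 8.21%, a ratio of 1.19 (1.102 to 1.29). A share of cells in 1 library per diet cannot separate diet from the animal or the cell capture.

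Between the diets most genes of the members lay close together. Of 9760 genes with 100 or more UMIs over both libraries, 75 (0.768%) were at least 1.5-fold higher in HFD members and 93 (0.953%) at least 1.5-fold lower, together 168 (1.72%). Counts past 1.5-fold in the gene lists below stand beside this share. The median log2 ratio, HFD over ND, was 0.01, and 5% of genes lay below -0.33 and 5% above 0.30. Of the 75 higher genes, 35 had fewer than 200 UMIs, as did 55 of the 93 lower genes. In 3 of the higher and 5 of the lower genes a single cell held at least 50% of the UMIs of the library that was higher.

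Genes of the primary granule and progenitor lists all stayed within 1.5-fold. Mpo, Elane, Prtn3 and Ctsg chose the cells in both libraries, so their closeness is partly set by the rule. None of the 20 primary granule genes measured passed 1.5-fold in either direction, and their median log2 ratio was -0.06. The widest of them was Lyz2, lysozyme, at 299 CPM in HFD members and 214 CPM in ND members, a log2 ratio of 0.48 (0.41 to 0.55). None of 17 stem and multipotent genes and none of 25 growth factor and cytokine receptors passed 1.5-fold, with medians of -0.07 and -0.02. Over all genes 1.72% passed, so lists of this size would hold few such genes. These counts are therefore not read as a lack of change. Kit was at 133 CPM (128 to 139) in HFD members and 153 CPM (147 to 160) in ND members, a log2 ratio of -0.20 (-0.29 to -0.11). Csf3r, the G-CSF receptor, was at 56.5 CPM in HFD members and 68.2 CPM in ND members, a log2 ratio of -0.27 (-0.41 to -0.14). Gfi1 was at 94.96 and 97.3 CPM, Cebpa at 187 and 189 CPM, and Cebpe at 53.8 and 56.8 CPM.

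Among 30 myeloid transcription factors, 2 were higher (Klf4 and Klf2) and 2 lower (Egr1 and Id2). Klf4 was at 44.6 CPM (41.3 to 48.1) in HFD members and 22.4 CPM (20.04 to 25.1) in ND members, a log2 ratio of 0.99 (0.80 to 1.19). It was above 0 in each subset, with log2 ratios of 0.58 in Irf8-rich and 1.84 in Irf8-low members, the second from 46 HFD and 13 ND UMIs. With cells thinned to 2000 UMIs, Klf4 was found in 7.30% of HFD and 3.82% of ND members. It was found in 1.83% and 0.565% of the Fcnb-high gate and in 14.4% and 13.9% of the Cd79a gate. At this depth it was not above the level of the B lineage cells. Irf8 itself was at 330 CPM in HFD members and 261 CPM in ND members, a log2 ratio of 0.34, but at 870 and 799 CPM within the Irf8-rich subset, where the log2 ratio was 0.12. Csf1r had a log2 ratio of 0.29 over all members and 0.06 within the Irf8-rich subset. Egr1 was at 12.9 CPM in HFD members and 24.01 CPM in ND members. Its level was highest in the members rich in Mcpt8, Cpa3 and Prg2, at 102 CPM in HFD and 199 CPM in ND, and its log2 ratio was -0.34 in Irf8-low and 0.29 in Irf8-rich members.

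Among genes at 200 or more UMIs over both libraries, the highest log2 ratios were those of the inducible Hsp70 pair, Hspa1a and Hspa1b, chaperones that refold damaged proteins. Cxcl9, with 180 UMIs in HFD members and 3 in ND members, had a higher one, but 1 cell held 99.4% of its HFD molecules. Their coding sequences and promoters are nearly identical, so molecules may be assigned to either gene and the sum is the firmer value. Both lie on mouse chromosome 17, and their windows were alike at 296 of 300 positions compared without gaps. Capitals mark the heat shock pattern GAANNTTC, found 1 time in each at 104 bases before the start and in 7.89% of all RefSeq windows.
Hspa1a, chr17:34972107-34972406, minus strand: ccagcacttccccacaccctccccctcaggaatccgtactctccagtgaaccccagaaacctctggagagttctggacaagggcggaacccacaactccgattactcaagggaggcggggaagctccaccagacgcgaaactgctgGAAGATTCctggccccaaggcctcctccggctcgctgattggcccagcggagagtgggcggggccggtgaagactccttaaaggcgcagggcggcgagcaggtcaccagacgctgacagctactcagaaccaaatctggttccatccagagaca
Hspa1b, chr17:34959189-34959488, minus strand: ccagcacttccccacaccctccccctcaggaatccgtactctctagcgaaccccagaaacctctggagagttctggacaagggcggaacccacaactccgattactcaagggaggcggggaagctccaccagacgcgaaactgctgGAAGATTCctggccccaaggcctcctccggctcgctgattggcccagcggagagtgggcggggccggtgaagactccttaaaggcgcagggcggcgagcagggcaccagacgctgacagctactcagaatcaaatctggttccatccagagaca

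Summed, the pair had 3352 UMIs (220 CPM) in HFD members and 153 UMIs (10.9 CPM) in ND members, a log2 ratio of 4.34 (4.11 to 4.58). At least 1 UMI of either gene was present in 316 HFD members (46.7%) and 62 ND members (9.67%), and 5 or more in 162 HFD and 6 ND members. No single cell held more than 3.07% of the HFD molecules. With every cell thinned to 2000 UMIs, Hspa1b was found in 13.8% of HFD and 0.477% of ND members, and in 5.33% of HFD and 0.521% of ND cells of the Cd79a gate. The difference was not particular to these progenitors: the summed log2 ratio was 4.42 in the Fcnb-high gate, 4.22 in secondary granule cells, 3.47 in the Cd79a gate and 3.67 over all kept cells. Within the members the summed level was 365 CPM in Irf8-rich and 116 CPM in Irf8-low HFD cells, and 21.0 and 5.75 CPM in the same ND subsets. The log2 ratios were 4.12 and 4.33, so the Irf8-rich cells were higher within each library and the ratio between libraries was alike. With 1 library per diet, diet and library cannot be told apart.

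The other 21 heat shock chaperones measured stayed within 1.5-fold, although all 23 members of the list lay above 0 with a median log2 ratio of 0.10. Dnajb1, a co-chaperone, was at 67.9 CPM in HFD members and 55.1 CPM in ND members. Hsf2, a heat shock factor, had a log2 ratio of 0.31. The cold-inducible gene Cirbp was at 26.8 CPM in HFD members and 41.8 CPM in ND members, a log2 ratio of -0.64 (-0.83 to -0.46), while Rbm3 was at 372 and 371 CPM.

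Lipid genes moved singly. Of 37 fatty acid oxidation and lipid droplet genes, 2 were at least 1.5-fold higher in HFD members, Acot1 and Fabp4, and none lower, with a median of 0.07. Acot1, an acyl-CoA thioesterase, was at 30.2 CPM (27.5 to 33.1) in HFD members and 14.7 CPM (12.8 to 16.9) in ND members, a log2 ratio of 1.04 (0.80 to 1.28). It had a UMI in 41.4% of HFD members and 23.4% of ND members, and in 2.58% of HFD and 0.960% of ND cells of the shallower Cd79a gate. Its log2 ratio was 1.65 in Irf8-low and 0.72 in Irf8-rich members, 1.84 in the Fcnb-high gate and 1.36 in the Cd79a gate. Fabp4 rested on few cells, with 69.8% of its HFD molecules in 1 member. Plin2, a lipid droplet coat protein, was at 38.1 CPM in HFD members and 26.1 CPM in ND members, a log2 ratio of 0.54 that stays below 1.5-fold.

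On the synthesis side, Acsl3, which activates long-chain fatty acids, was at 8.14 CPM in HFD members and 14.6 CPM in ND members, a log2 ratio of -0.85 (-1.18 to -0.52). It was the only one of 17 fatty acid synthesis genes past 1.5-fold, and its log2 ratio was -0.78 in Irf8-low and -0.94 in Irf8-rich members. None of 27 cholesterol synthesis genes passed; Sqle, squalene epoxidase, had the widest log2 ratio at -0.53. Tspo, the outer mitochondrial membrane translocator protein, was at 170 CPM (164 to 177) in HFD members and 107 CPM (102 to 113) in ND members, a log2 ratio of 0.67 (0.58 to 0.76). Tspo lay in the same direction in all 4 subsets, from 0.58 to 0.74, and at 0.68 in the Fcnb-high gate and 0.94 in the Cd79a gate.

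**Figure D4:**
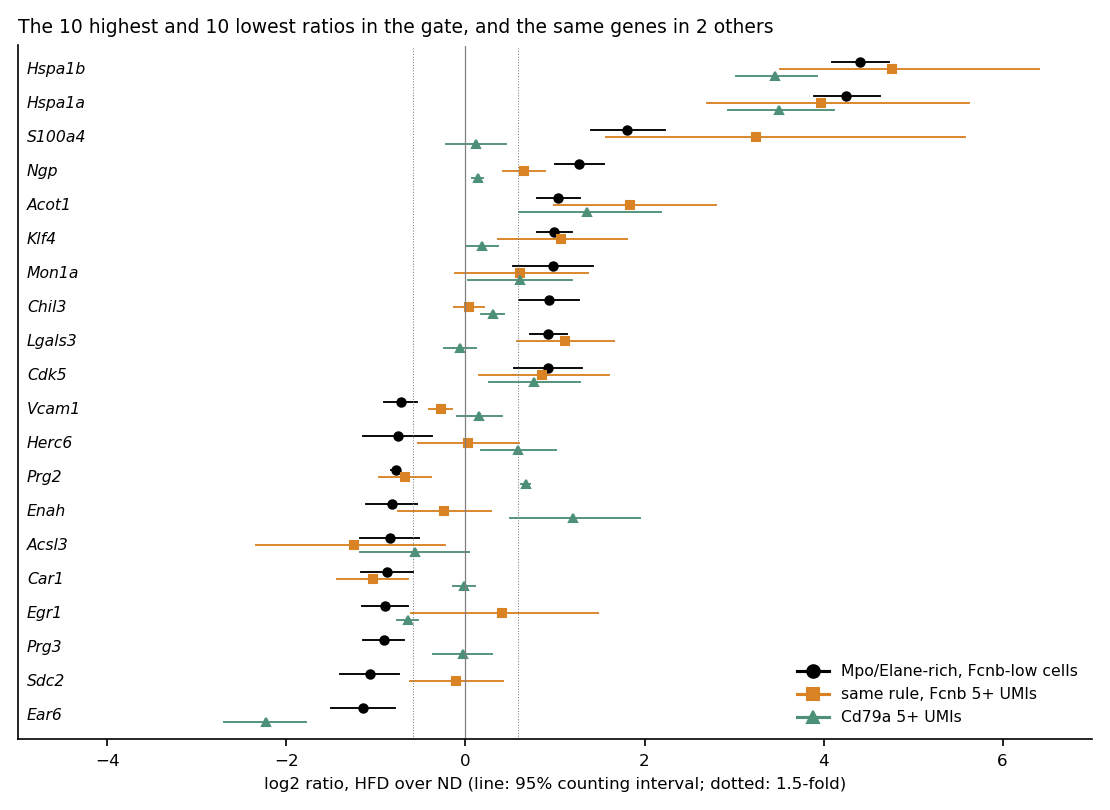
Log2 ratio, HFD over ND, of the 10 genes with the highest and the 10 with the lowest ratio among genes at 200 or more UMIs in the members, leaving out haemoglobin, immunoglobulin, T cell receptor, mitochondrial and ribosomal protein genes and numbered gene models (black circles), and the same genes in the Fcnb-high gate (orange squares) and the Cd79a gate (green triangles); lines are 95% counting intervals, and genes under 20 UMIs in a gate are left out. Hspa1a and Hspa1b are high in all 3 gates, while several of the lowest genes, such as Sdc2 and Herc6 in the Fcnb-high gate, lie near 0 or above it elsewhere.

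Secondary and tertiary granule genes had the highest median of any list, a log2 ratio of 0.42 over 18 measured genes, with 6 at least 1.5-fold higher in HFD members and none lower. The 6 were Ngp, Lcn2, Chil3, Mmp8, Mmp9 and Cd177. The rule itself limited Ngp, Ltf and Camp. Their levels in these cells were low: Lcn2, the siderophore-binding protein, was at 28.4 CPM in HFD members and 18.0 CPM in ND members. Ngp was at 26.5 and 11.01 CPM, with 27.5% of the HFD molecules in 1 member, against 747 CPM in HFD and 681 CPM in ND cells of the Cd79a gate. With cells thinned to 2000 UMIs, Ngp was found in 3.26% of HFD and 1.27% of ND members, below the 11.1% and 7.396% of the Cd79a gate. The same held for Lcn2, with 4.66% and 3.50% of members and 7.27% and 4.58% of the Cd79a gate. It held for Chil3 too, with 2.02% and 1.43% of members and 3.39% and 2.29% of that gate. These shares lie below those of another lineage and are not read as expression. Without the cells whose Ltf, Camp and Ngp share reached 0.1%, the log2 ratios of Mmp8 and Mmp9 turned to -0.46 and -0.55. S100a8 had a log2 ratio of 0.35 in the members and 0.39 in the Cd79a gate. At 2000 UMIs it was found in 18.2% of HFD and 16.4% of ND members. The Cd79a gate had it in 21.6% of HFD and 15.1% of ND cells, so HFD members were not above that gate.

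S100a4, a calcium-binding protein of motile cells, and Lgals3, galectin-3, were also among the 10 highest by the naming rule. S100a4 was at 15.9 CPM (13.95 to 18.0) in HFD members and 4.55 CPM (3.50 to 5.81) in ND members, a log2 ratio of 1.81 (1.40 to 2.23). Lgals3 was at 38.7 CPM in HFD members and 20.4 CPM in ND members. Both were highest in the Irf8-rich subset, where S100a4 was at 30.8 CPM in HFD and 9.04 CPM in ND cells and Lgals3 at 79.8 and 48.4 CPM. In members with a 4-gene share of 2% or more, the log2 ratio of Lgals3 turned to -0.05. In the Cd79a gate S100a4 was at 23.5 CPM in the HFD and 21.7 CPM in the ND library. Its log2 ratio in that gate was 0.12 (-0.22 to 0.45). With cells thinned to 2000 UMIs, S100a4 was found in 1.86% of HFD and 1.27% of ND members, below the 2.18% of HFD and 2.19% of ND cells of the Cd79a gate. These shares cannot tell background from expression. Whether the difference in S100a4 is a change of expression in the members was not tested. Mon1a, a vesicle traffic gene, and Cdk5, a cyclin-dependent kinase, had log2 ratios of 0.97 and 0.92 from 136 and 64, and 184 and 90, UMIs in HFD and ND members.

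The eosinophil genes differed in direction and rested on few cells. Prg2 was at 386 CPM in HFD members and 663 CPM in ND members, a log2 ratio of -0.78, with 24.3% of HFD and 13.6% of ND molecules in 1 cell. Prg3 was at 15.8 and 29.8 CPM. Epx was higher, at 28.5 CPM in HFD members and 20.8 CPM in ND members, with 32.7% of HFD and 29.7% of ND molecules in 1 cell. Ear1 was at 8.27 CPM in HFD members and 4.33 CPM in ND members, and 1 cell held 88.5% of its ND molecules. Of Ear6, an eosinophil-associated ribonuclease, 72.5% of the HFD and 67.8% of the ND molecules were in 1 cell. Without the 67 HFD and 68 ND members rich in Mcpt8, Cpa3 and Prg2, the log2 ratio of Prg2 turned to 1.15. Sdc2, a heparan sulfate proteoglycan, did not rest on single cells: it was at 7.62 CPM (6.29 to 9.14) in HFD members and 16.0 CPM (13.97 to 18.2) in ND members, and its log2 ratio was -0.98 in the Irf8-low members, which hold most of it. Haemoglobin genes were also lower in HFD members, but 1 ND cell held 87.0% of the Hba-a1 molecules. Enah and Vcam1 had 20.9% and 16.1% of their ND molecules in 1 cell, and Car1 had 55.0% of its HFD and 45.8% of its ND molecules in 1 cell.

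Most interferon genes lay slightly above 0, and few passed 1.5-fold. Of 25 type I interferon genes, 20 lay above 0, with a median of 0.09 beside 0.01 over all genes. Past 1.5-fold, 3 were higher in HFD members (Irf9, Xaf1 and Cxcl10) and 1 lower (Herc6). Irf9, a subunit of the interferon-activated complex, was at 35.4 CPM (32.5 to 38.5) in HFD members and 22.9 CPM (20.5 to 25.6) in ND members. Xaf1 was at 15.4 and 9.24 CPM. Herc6, an interferon-induced ubiquitin ligase, was at 6.24 CPM in HFD members and 10.51 CPM in ND members. Cxcl10 rested on 1 HFD cell with 95.2% of its molecules. Of 21 interferon gamma and class I presentation genes, 19 lay above 0 and 2 passed 1.5-fold, Gbp2 and Nlrc5, with a median of 0.16. Nlrc5, which drives class I genes, was at 15.7 CPM in HFD members and 9.95 CPM in ND members.

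Cell cycle genes were close in both libraries. All 44 S phase genes stayed within 1.5-fold, with a median log2 ratio of 0.03, and Mcm5, a replication helicase subunit, was at 339 CPM in HFD members and 342 CPM in ND members. All 52 G2 and M phase genes stayed within it too, with a median of 0.12 and 44 of them above 0. Ccnb1, cyclin B1, was at 125 CPM in HFD members and 96.7 CPM in ND members. Mki67 was at 280 and 279 CPM. The median of the G2 and M list was 0.27 in Irf8-low members, -0.11 in Irf8-rich members and -0.03 in the Fcnb-high gate, so its sign depended on the cells taken.

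Cytosolic ribosomal protein genes summed to 153424 CPM in HFD members and 161580 CPM in ND members, with a median log2 ratio of -0.08 and 8 of 77 above 0. Mitochondrially encoded genes summed to 70843 and 76017 CPM, with all 13 below 0. Nucleolar ribosome biogenesis genes had a median of 0.07, with 35 of 40 above 0. Of 33 endoplasmic reticulum folding genes 1 passed 1.5-fold, Asns, asparagine synthetase, at 21.5 CPM in HFD members and 13.6 CPM in ND members. The linker histone gene H1f0 was at 32.7 CPM in HFD members and 51.6 CPM in ND members.

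The remaining lists held few genes past 1.5-fold. Higher in HFD members were Cd74, the class II invariant chain, among 8 class II genes and Fcgr4, an Fc receptor, among 13 phagocytosis receptors. The log2 ratio of Cd74 turned to -0.11 at a 4-gene share of 2% or more, and that of Fcgr4 to -0.20 in thinned cells and -0.28 in Irf8-rich members. Lower were Mt2, a metallothionein, among 12 metallothionein and zinc transporter genes, Hgf, hepatocyte growth factor, among 14 inducible cytokines, and Slc40a1, the iron exporter ferroportin, among 16 iron genes. Of Mt2, 1 cell held 63.5% of the HFD molecules, and of Cd74, 1 cell held 46.9% of the ND molecules. None of 86 nuclear respiratory chain genes, 23 microbial pattern receptor genes, 14 clock genes, 11 protease activation genes and 8 NADPH oxidase subunits passed 1.5-fold. Over all genes the share was 1.72%, so these counts are not read as a lack of change.

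**Figure D5:**
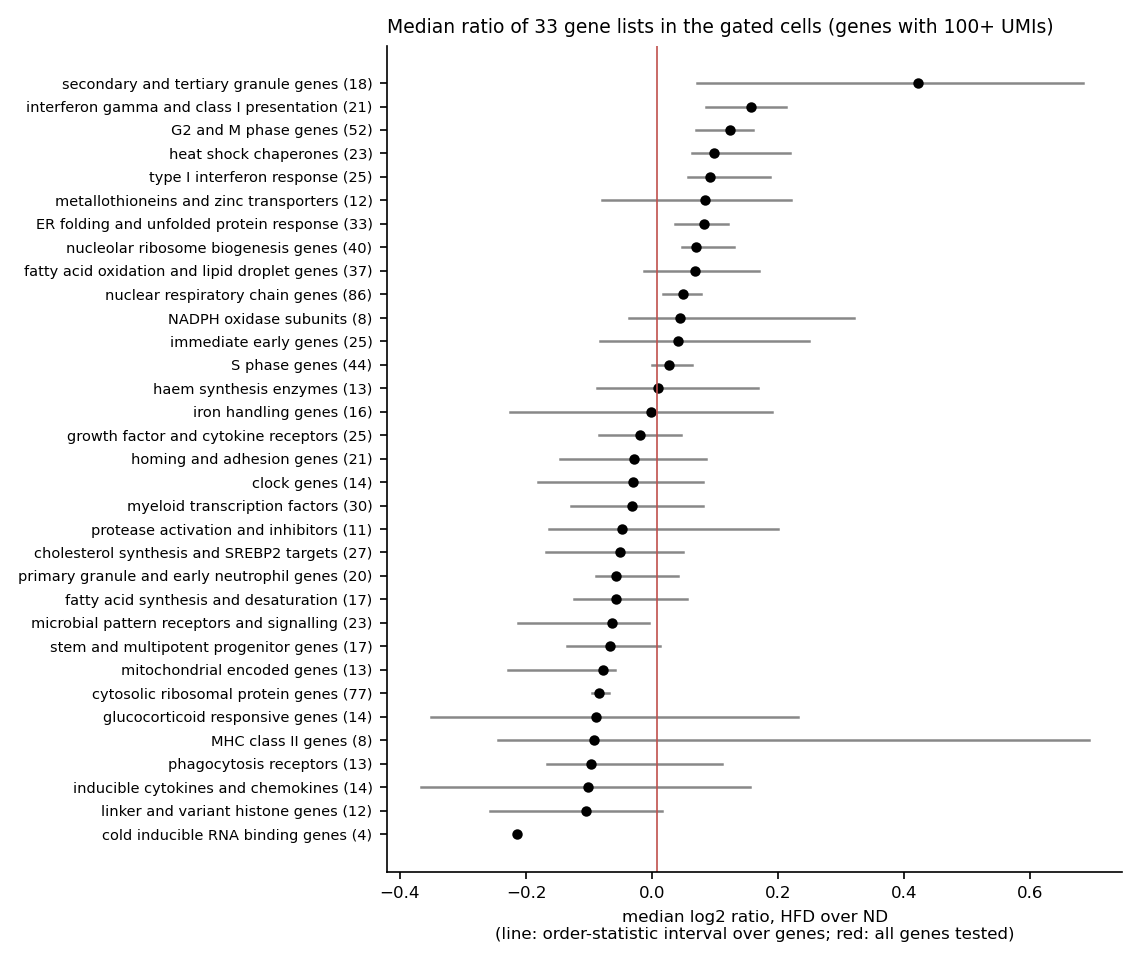
Median log2 ratio, HFD over ND, of 33 gene lists in the members (points; number of genes with 100 or more UMIs in brackets) with order-statistic intervals over the genes of each list, which are not independent; the red line is the median of all genes tested. Secondary and tertiary granule genes lie farthest to the right at 0.42, and most medians lie within 0.1 of 0.

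Of the 10 highest of the genes at 200 or more UMIs, haemoglobin, immunoglobulin and the other classes named with the plot of ratios left out, 9 were at least 1.5-fold higher in HFD cells of the Fcnb-high gate too, and 5 in the Cd79a gate. Of the 10 lowest by the same rule, 8 had 20 or more UMIs in the Fcnb-high gate, where 3 were at least 1.5-fold lower in HFD cells, and 9 had them in the Cd79a gate, where 2 were. The share of all genes past 1.5-fold at 20 or more UMIs was not counted in these gates, so the counts are not read as a recurrence. In the members themselves, 299 of 11590 genes were higher and 466 lower at that minimum. Some of the values rest on few molecules, such as 35 HFD and 3 ND UMIs of S100a4 in the Fcnb-high gate. These gates come from the same 2 libraries, so they share whatever set the libraries apart.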

How the data were processed

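Bone marrow single-cell RNA and 5 antibody tags were read with 1 library per diet. Per the file headers, the authors' deposited molecule counts per cell come from BD's WTA Rhapsody Analysis Pipeline, version 1.9.1. The genome build is not given in the sources used here. Genes listed in either table numbered 24014. UMI counts were summed over the gated cells of each library, scaled to CPM, and compared as log2 of HFD over ND. Genes with 100 or more UMIs over both libraries were counted as higher or lower from 1.5-fold. Intervals at 95% are exact Poisson for levels, Clopper-Pearson for shares and conditional binomial for ratios, and cover counting error only. Doublets were kept, and leaving out those called by Scrublet (expected 5%) was an alternative. The named genes were the rule genes and markers, the 10 highest and 10 lowest ratios at 200 or more UMIs (without mitochondrial, ribosomal protein, haemoglobin, immunoglobulin and T cell receptor genes and numbered gene models), the 10 highest and 10 lowest folds over each neighbouring gate, genes followed across bins, and up to 4 members of each of 33 gene lists. Members and lists were chosen with earlier results of these data known, and the Irf8 and Mcpt8, Cpa3 and Prg2 limits after values were seen; genes outside the naming rule were likewise chosen after their values were seen. The scripts were tested on simulated data. Python 3.11.15, numpy 2.4.6, scipy 1.17.1, pandas 2.3.3, scanpy 1.11.5 and matplotlib 3.10.9 were used. Promoter windows came from RefSeq on GRCm38.p6.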

Additional observations from a re-analysis of the deposited data

How the results depend on the processing

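No paired analysis was possible because each diet has 1 library and no fit between diets was made. The share ratio of 0.96 kept its direction in the alternatives run, except 1.15 over Irf8-rich members alone. The 75 higher genes became 125 with the mean over cells, 299 with a minimum of 20 UMIs, 19 with a minimum of 400 and 12 at 2-fold. The 93 lower genes became 57 with cells thinned to 5000 UMIs, 466 at 20 UMIs, 15 at 400, 14 at 2-fold and 58 in Irf8-low members. Few calls were shared with the reported ones in thinned cells (11 of 74 higher and 11 of 57 lower), Irf8-rich members (17 of 98 and 7 of 70), Irf8-low members (28 of 81 and 17 of 58) and a 4-gene share of 2% or more (22 of 76 and 23 of 77). Directions turned for single genes. With a 4-gene share of 2% or more, log2 ratios were 1.39 for Car1, -0.053 for Lgals3, -0.95 for Fn1, -0.37 for Cd177 and -0.11 for Cd74. With a secondary granule share under 0.1%, they were -0.46 for Mmp8 and -0.55 for Mmp9. With the mean over cells, they were 0.49 for Car1 and 0.076 for Mt2, and with thinning -0.20 for Fcgr4. Without members rich in Mcpt8, Cpa3 and Prg2, they were 4.63 for Ear6, 1.15 for Prg2 and -0.13 for Fabp4. In Irf8-low members, they were 0.033 for Car1 and 1.04 for Prg2. In Irf8-rich members, they were 0.29 for Egr1, 1.17 for Prg2, 1.14 for Hba-a1, -0.21 for Klf2, -0.30 for Gbp2, -0.28 for Fcgr4, 0.040 for Hgf and 0.11 for Slc40a1. The cause was not tested. The settings by subset, by depth under 8000 UMIs and without each gene's top cell were chosen after seeing the data. Genes under 200 UMIs are limited by counting error.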
